A study of Mus musculus with 6 samples.

Results

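The receptor tyrosine kinases Tyro3, Axl and Mertk, called TAM receptors after their initials, and their ligands Gas6 and Pros1 were measured in the cerebral cortex of mice by 8 of the 45037 probe sets of an Affymetrix mouse array. These 5 of 18193 named genes were taken with all probe sets to which the platform's annotation gives one of these 5 symbols alone. Tyro3, Axl and Gas6 have 2 probe sets each, and Mertk and Pros1 have 1. The data comprise 3 arrays labelled Egr1/Egr3 double knockout and 3 arrays labelled wild type, all of total RNA. The labels give no strain, age, sex, allele or breeding of the mice, and nothing in them says whether the arrays of a group come from different animals, so errors describe the spread between these arrays. Egr1 and Egr3 are zinc finger transcription factors that neurons induce with activity, and the comparison asks which cortical transcripts differ where both genes are targeted.

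TAM receptors are single-pass membrane proteins whose extracellular part binds Gas6 or protein S, the product of Pros1. Both ligands carry a domain of vitamin K dependent gamma-carboxyglutamate (Gla) residues, which binds phosphatidylserine on the surface of dying cells or shed membrane, so that the ligand bridges that membrane to the receptor on an engulfing cell. In the brain Tyro3 is known mainly from neurons, whereas Mertk and Axl are known from microglia, the resident macrophages, and Mertk also from astrocytes.

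The members were chosen with earlier results of this same contrast in view. Their values are therefore given as a description, with no p-value. Tyro3 signal was lower in the arrays labelled double knockout on both of its probe sets, by a factor of 0.420 on the brighter one and 0.600 on the dimmer one. Axl and Mertk overlapped between the groups. Gas6 was higher on its bright probe set, by a factor of 1.26 without overlap, and Pros1 overlapped.

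The arrays labelled double knockout matched that label for Egr3 and not for Egr1. The brighter Egr3 probe set read 405 ± 89.8 in them, against 1594 ± 941 in wild type (SD, n = 3 each), while Egr1 read 2473 ± 309, against 1577 ± 423. Where the probes lie relative to the deleted parts is not given in the sources used here. The title of double knockout replicate 1 names no genotype, unlike those of replicates 2 and 3. Double knockout replicate 2 carried female RNA (Xist signal 3140, against at most 42.5 on the other arrays), and the spiked controls of wild type replicate 1 read 0.415 of the median over the others. The 3' to 5' ratio of the Gapdh control, a sign of RNA quality, was 0.881 to 0.9497 in the arrays labelled double knockout, against 0.806 to 0.873 in wild type. The Actb control's ratio overlapped between the groups. Its wild type values ran from 1.58 to 1.95 and enclosed those of the other group (1.68 to 1.89). Whether any of these bears on the member values was not tested.

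Tyro3, the receptor named first in the family, had the largest difference of the 5 members. The brighter probe set (1425248_a_at) read 237, 149 and 235 signal units in double knockout replicates 1, 2 and 3, against 442, 568 and 469.8 in wild type replicates 1, 2 and 3. The group means were 207 ± 50.2 and 493 ± 66.3 (SD, n = 3 each), a log2 difference of -1.21 (SE 0.17) on the log2(signal + 16) scale, on which all log2 values here are given. The groups did not overlap, and the highest array labelled double knockout lay below the lowest wild type array by more than the spread within either group. By its signed difference this probe set ranked 53rd from the most negative of 22518 tested probe sets. In bulk tissue, fewer cells that express a gene and less of its RNA per cell cannot be told apart.

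The second Tyro3 probe set (1425249_a_at) went the same way by a smaller amount. It read 207, 183 and 176 in double knockout replicates 1, 2 and 3, against 295, 375 and 271 in wild type replicates 1, 2 and 3. The means were 188 ± 16.3 and 314 ± 54.3 (SD, n = 3 each), a log2 difference of -0.68 (SE 0.14), again without overlap. It ranked 337th from the most negative. The annotation derives both probe sets from the same transcript sequence, and their suffix is the one the manufacturer gives to probe sets shared by transcripts of one gene.

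The 2 Tyro3 probe sets differed in the size of the change. The brighter read 1.148, 0.818 and 1.34 times the dimmer in double knockout replicates 1, 2 and 3, against 1.497, 1.52 and 1.73 times in wild type replicates 1, 2 and 3. This ratio did not overlap between the groups, and the log2 differences of the probe sets lay 0.53 apart. Which transcripts each one reads is not given in the sources used here. Within groups the probe sets ordered the arrays only in part alike: wild type replicate 2 was highest on both, but the lowest array was double knockout replicate 2 on the brighter and double knockout replicate 3 on the dimmer. Wild type replicate 2 was also the array with the most Egr3 (2670) and, within wild type, the most Egr1 (2054). Within wild type the brighter Egr3 probe set ordered the arrays as the dimmer Tyro3 probe set did, and Egr1 ordered them as the brighter one did. Within the arrays labelled double knockout the Egr3 order was that of neither Tyro3 probe set, and the reverse of the dimmer one. Whether Egr signal bears on the Tyro3 values was not tested.

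**Figure D1:**
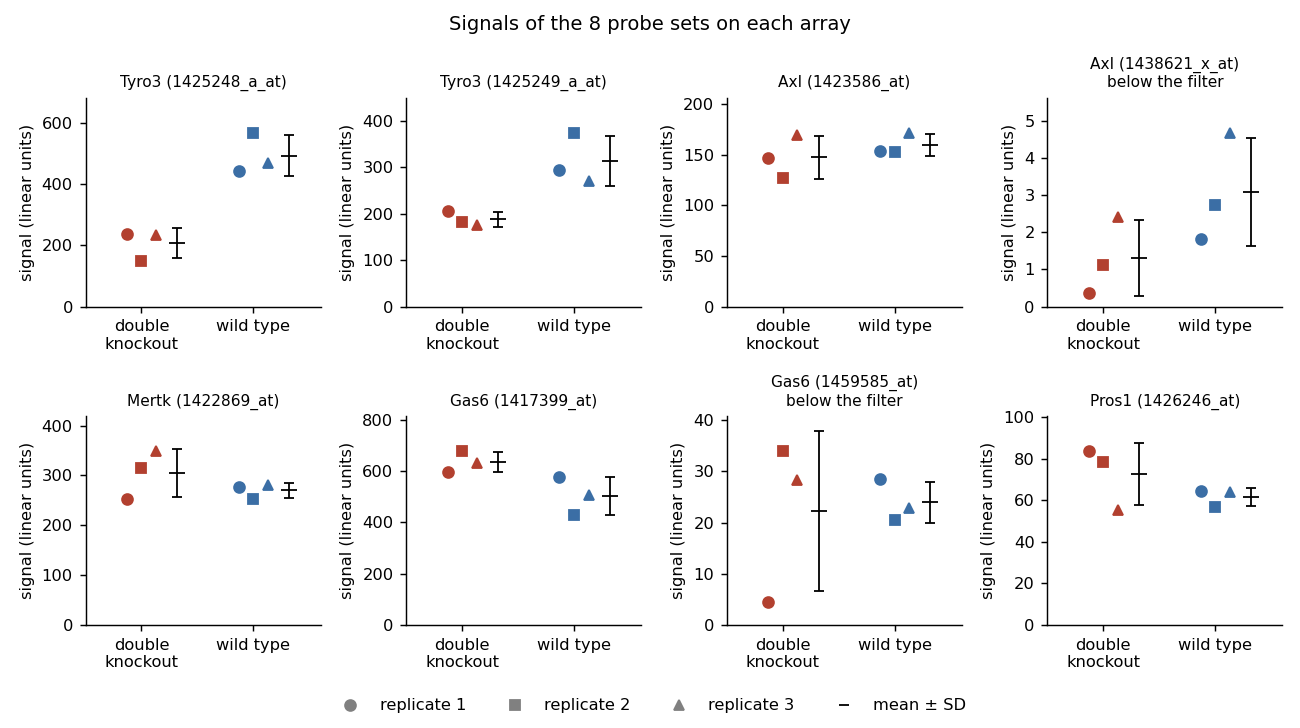
Signal in linear units of each of the 8 probe sets on the 6 arrays, with the arrays labelled double knockout left of wild type, a marker shape per replicate and the mean ± SD beside each group. Both Tyro3 probe sets and the bright Gas6 probe set show no overlap, with Tyro3 lower (means 207 and 188, against 493 and 314) and Gas6 higher (635 against 504).

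The second receptor, Axl, a kinase best known from macrophages and from cells under inflammation, differed little. Its bright probe set (1423586_at) read 147, 127 and 169.5 in double knockout replicates 1, 2 and 3, against 154, 153 and 172 in wild type replicates 1, 2 and 3. The groups overlapped, since double knockout replicate 3 lay between the wild type arrays. The means were 148 ± 21.3 and 159.6 ± 10.6 (SD, n = 3 each), with a log2 difference of -0.11 (SE 0.14). A further Axl probe set (1438621_x_at) read at most 2.41 in the arrays labelled double knockout, against at most 4.68 in wild type. These signals are near the bottom of the scale, where 1 of the 6 lay under the floor of 1, so the probe set was below the filter, was not tested and says nothing about a direction.

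Mertk, the receptor that engulfing cells use to take up dying cells and outer segments in the retina, also overlapped. Its probe set (1422869_at) read 253, 314 and 349 in double knockout replicates 1, 2 and 3, against 277, 254 and 281 in wild type replicates 1, 2 and 3. Double knockout replicates 2 and 3 were the highest arrays and double knockout replicate 1 the lowest. The means were 306 ± 48.3 and 271 ± 14.97 (SD, n = 3 each), with a log2 difference of 0.16 (SE 0.13). The order of the arrays for Mertk therefore did not follow the groups.

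Of the ligands, Gas6, which activates each of the TAM receptors, was higher on its bright probe set (1417399_at). It read 596, 677 and 632 in double knockout replicates 1, 2 and 3, against 578, 429 and 505 in wild type replicates 1, 2 and 3. The groups did not overlap, but the closest pair across groups, replicate 1 of each, lay close together relative to the spread within either group. The means were 635 ± 40.5 and 504 ± 74.3 (SD, n = 3 each), a log2 difference of 0.33 (SE 0.12). The other Gas6 probe set (1459585_at) was below the filter, at 4.44, 33.9 and 28.3 in double knockout replicates 1, 2 and 3, against 28.4, 20.5 and 22.8 in wild type replicates 1, 2 and 3. It overlapped, with a log2 difference of -0.16, and so did not show the difference of the bright one.

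Pros1 encodes protein S, an anticoagulant of plasma that also activates Tyro3 and Mertk. Its probe set (1426246_at) read 83.7, 78.6 and 55.5 in double knockout replicates 1, 2 and 3, against 64.5, 56.7 and 64.04 in wild type replicates 1, 2 and 3. Double knockout replicates 1 and 2 were the highest arrays and double knockout replicate 3 the lowest. The means were 72.6 ± 15.01 and 61.7 ± 4.39 (SD, n = 3 each), with a log2 difference of 0.18 (SE 0.17).

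Of the 8 member probe sets 6 lay above the filter, which asks for a mean log2 signal above the median of all probe sets. The groups did not overlap for 3 of these 6, 2 lower and 1 higher, against 22.3% of all 22518 probe sets above the filter. Nothing is read from this count, because the members were chosen on this contrast.

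**Figure D2:**
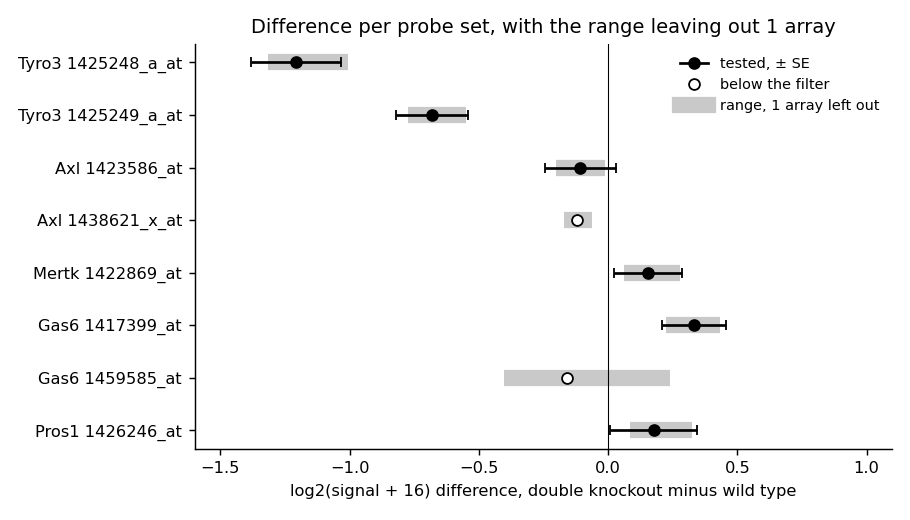
Log2(signal + 16) difference of each member probe set, the arrays labelled double knockout minus wild type, with the SE for the 6 tested probe sets, open circles for the 2 below the filter and grey bars for the range when each array was left out. Tyro3 lies at -1.21 and -0.68, with ranges of -1.31 to -1.01 and -0.77 to -0.55, and the grey bar of the dim Gas6 probe set crosses 0.

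Leaving out each array in turn kept the sign of the bright probe set of every member. For Tyro3 and Gas6, whose groups did not overlap on that probe set, it could not have changed, so only the size is informative. The log2 difference of Tyro3 ranged from -1.31 to -1.01, that of Axl from -0.20 to -0.01, that of Mertk from 0.06 to 0.28, that of Gas6 from 0.23 to 0.43 and that of Pros1 from 0.08 to 0.32. The dim Gas6 probe set ranged from -0.40 to 0.24. The low end of the Axl range and of the Mertk range is close to 0.

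Since the targeted genes encode transcription factors, the promoter windows of the members were searched for the motif GCGNGGGCG, which holds the site that Egr zinc fingers are known to bind, and for its first 7 letters, GCGNGGG, on both strands. RefSeq windows of build GRCm38.p6, from 250 bases before to 50 bases after the start, matched all 5 members, with 1 window each. The motif occurred in 1 member window, that of Pros1, and in 5.55% of all 32851 windows. The shorter GCGNGGG occurred in 2 member windows, those of Tyro3 and Pros1, and in 23.2% of all windows, and any match to the longer motif contains it. The windows of Tyro3 and Pros1 are shown because they are the ones with a match, one from the member whose signal differed most and one from a member whose groups overlapped. In the Tyro3 window, chr2:119799264-119799563 on the plus strand, capitals mark the 3 matches to GCGNGGG, which begin 125, 38 and 36 bases before the start, with the last 2 overlapping. In the Pros1 window, chr16:62854057-62854356 on the plus strand, capitals mark the match to GCGNGGGCG, which lies on the minus strand and begins 7 bases before the start.
Tyro3: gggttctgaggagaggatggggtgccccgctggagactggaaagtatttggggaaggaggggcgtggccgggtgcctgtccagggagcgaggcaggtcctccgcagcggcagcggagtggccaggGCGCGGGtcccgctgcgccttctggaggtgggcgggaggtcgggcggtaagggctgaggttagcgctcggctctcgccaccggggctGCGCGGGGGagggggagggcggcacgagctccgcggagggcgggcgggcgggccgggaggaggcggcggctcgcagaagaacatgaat
Pros1: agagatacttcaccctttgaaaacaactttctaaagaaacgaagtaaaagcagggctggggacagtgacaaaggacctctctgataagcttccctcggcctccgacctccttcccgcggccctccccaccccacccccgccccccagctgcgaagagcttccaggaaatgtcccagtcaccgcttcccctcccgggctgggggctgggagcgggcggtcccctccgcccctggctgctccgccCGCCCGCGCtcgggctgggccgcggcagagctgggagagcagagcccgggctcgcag

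The Tyro3 window held no match to the full motif on either strand, and those of Axl, Mertk and Gas6 held neither form. The windows were GC-rich, with 73.3% G or C for Tyro3, 66.7% for Pros1, 66.0% for Mertk, 60.3% for Axl and 58.3% for Gas6. A match is a stretch of letters and not a binding site, and no match refers to these windows only.

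None of the 5 members lies on the chromosome of Egr1 or of Egr3. Tyro3 and Mertk are on the same chromosome, so their neighbours in gene order were examined as well, a choice made after the member values were seen. Of the 10 nearest tested genes on each side of Tyro3, 0 of 20 passed an adjusted p of 0.05 in limma. Of all tested probe sets 1.02% did. An unadjusted limma p under 0.05 was reached by 5 of the 20, against 3735 of all 22518 tested probe sets. The groups did not overlap for 6 of the 20, against 22.3% of all tested probe sets. By size, 17 of the 20 differed by less than 0.5 on the log2 scale. Itpka, a kinase of inositol trisphosphate, read 493 ± 46.8 in the arrays labelled double knockout, against 719.6 ± 113 in wild type (SD, n = 3 each), with a log2 difference of -0.53 (limma adjusted p = 0.0933). Rpap1, the nearest tested gene on that side, differed by 0.54 (limma adjusted p = 0.199). Tmem87a, 6 tested genes away on the other side, did not follow the groups. It read 6.44, 179 and 3.997 in double knockout replicates 1, 2 and 3, against 4.69, 408 and 422 in wild type replicates 1, 2 and 3. The arrays low for Tmem87a included wild type replicate 1. On the brighter Tyro3 probe set this was the lowest wild type array (442), though above every array labelled double knockout. Double knockout replicate 2, the highest of its group for Tmem87a (179), was the lowest of all arrays on that probe set (149). On the dimmer Tyro3 probe set the lowest wild type array was replicate 3 (271), the highest for Tmem87a (422). Whether the location of Tyro3 bears on its values was not tested.

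Among the 20 neighbours of Mertk 1 passed, 5 had an unadjusted limma p under 0.05 and 3 did not overlap between the groups. Of all tested probe sets 1.02% passed, 3735 of 22518 had such an unadjusted p and 22.3% did not overlap. Bcl2l11, which encodes the apoptosis promoter Bim and is the second tested gene from Mertk, rose to 234 ± 39.3 in the arrays labelled double knockout, against 98.5 ± 16.3 in wild type (SD, n = 3 each; log2 1.13, limma adjusted p = 0.0139). How the Bcl2l11 call depends on the processing was not examined. Anapc1 and Tmem87b, which lie on either side of Mertk, differed by -0.02 and 0.34 and did not pass (limma adjusted p = 0.968 and 0.257). Sirpa, the receptor for CD47, is also among these neighbours and differed by -0.11.

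**Figure D3:**
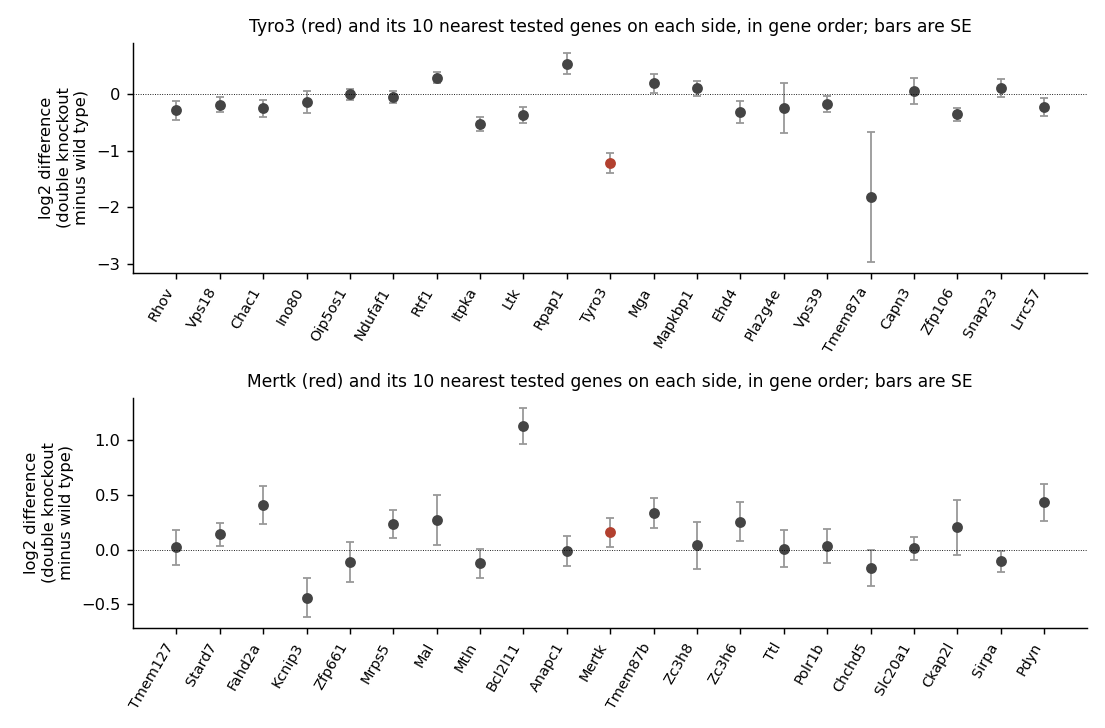
Log2(signal + 16) difference, the arrays labelled double knockout minus wild type, with SE bars, of Tyro3 (upper panel) and Mertk (lower panel) in red and of the 10 nearest tested genes on each side in gene order. Tyro3 (-1.21) lies below all of its neighbours but Tmem87a (-1.82), whose SE is the widest, and Bcl2l11 (1.13) stands above the other neighbours of Mertk.

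Genes that act with the TAM receptors were described by 5 lists, in which each gene is represented by its brightest tested probe set. Of 81 listed genes 53 were tested, 3 rose, 0 fell and 50 did not pass an adjusted p of 0.05 in limma. Of all tested probe sets limma called 1.02%, with 0.426% higher and 0.591% lower. The risen genes are Abca1, Atp11b and Mgp, each in a different list. At an unadjusted limma p under 0.05 the whole array held 3735 of 22518 tested probe sets, and the median log2 difference over all of those tested was 0.01.

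Other bridges and engulfment receptors for phosphatidylserine had a median of -0.22, which was -0.01 with the stricter filter and -0.04 with no filter, with 6 of 8 tested genes lower and 0 past limma's threshold (2 at an unadjusted p under 0.05). Mfge8, a secreted bridge between phosphatidylserine and integrins, read 787 ± 119 in the arrays labelled double knockout, against 1116 ± 295 in wild type (SD, n = 3 each; log2 -0.47, limma adjusted p = 0.261). Itgb5, a beta integrin of the receptor that binds Mfge8, read 161 ± 32.5 and 222 ± 33.5 (log2 -0.44, limma adjusted p = 0.225). Its partner Itgav differed by 0.03 and the large endocytic receptor Lrp1 by -0.01. The other 8 listed receptors, among them Timd4, Stab2 and Cd36, lay below the filter.

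Engulfment signalling had a median of 0.04 over 10 tested genes, with 1 that rose and 9 that did not pass. Abca1, a transporter that exports cholesterol and phospholipid and is induced in cells that take up dying cells, read 608, 527 and 632 in double knockout replicates 1, 2 and 3, against 303, 359 and 358 in wild type replicates 1, 2 and 3. The groups did not overlap. Its log2 difference stood at 0.76 (SE 0.12, limma adjusted p = 0.0182), and a dimmer probe set read 113 ± 20.4 and 54.7 ± 10.8 (limma adjusted p = 0.0532). Of the module that activates Rac, Elmo2 differed by -0.42, Dock1 by -0.34, Elmo1 by 0.07 and Rhog by 0.07, the adaptor Crkl by 0.32 and Rac1 itself by 0.22, none of them past the threshold.

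The list of phosphatidylserine exposure and signals against engulfment had a median of 0.03 over 9 tested genes, of which 1 rose and 8 did not pass. Atp11b, a P4-type ATPase of a family that flips phospholipids to the inner leaflet, read 1075, 1225 and 1208 in double knockout replicates 1, 2 and 3, against 695, 561 and 801 in wild type replicates 1, 2 and 3. The groups did not overlap, with a log2 value of 0.77 for the difference (SE 0.13, limma adjusted p = 0.0322). Tmem30a, the subunit that such flippases need, differed by 0.13, and Cd47, a signal against engulfment, by 0.20, neither past the threshold.

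Carboxylation enzymes and other Gla proteins had a median of 0.06 over 8 tested genes, of which 1 rose and 7 did not pass. Mgp, matrix Gla protein, an inhibitor of calcification that shares the Gla modification with Gas6 and protein S, read 667, 626 and 1182 in double knockout replicates 1, 2 and 3, against 387, 356 and 358 in wild type replicates 1, 2 and 3. Double knockout replicate 3 was far above the rest, and the groups did not overlap (log2 1.08, SE 0.20, limma adjusted p = 0.0440). Ggcx, the carboxylase that modifies Gla proteins, read 41.9 ± 2.72 in the arrays labelled double knockout, against 63.3 ± 24.9 in wild type (log2 -0.41, limma adjusted p = 0.370). The vitamin K recycling enzymes Vkorc1 and Vkorc1l1 differed by -0.10 and -0.49 (limma adjusted p = 0.677 and 0.0845). Ggcx, Vkorc1, Vkorc1l1 and the other genes given with values outside the naming rule were picked for their role after their values were seen.

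TAM signalling partners and sheddases had a median of -0.07 over 18 tested genes, of which 0 passed in limma (4 at an unadjusted p under 0.05). Src, a tyrosine kinase that acts with many receptors, read 132 ± 18.9 in the arrays labelled double knockout, against 204 ± 35.9 in wild type (SD, n = 3 each; log2 -0.57, limma adjusted p = 0.128). Pik3r1, a regulatory subunit of phosphoinositide 3-kinase, read 645 ± 89.9 and 491 ± 70.4 (log2 0.38, limma adjusted p = 0.207). Adam10 and Adam17, proteases that shed TAM receptors from the cell surface, differed by -0.14 and -0.13.

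**Figure D4:**
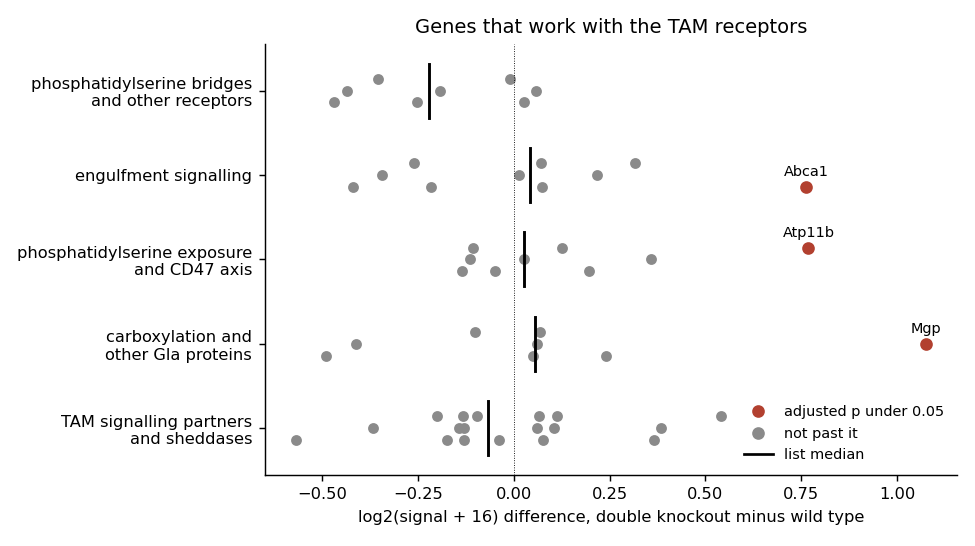
Log2(signal + 16) difference, the arrays labelled double knockout minus wild type, of each tested gene of 5 lists, with red points for an adjusted p under 0.05 and a bar at each list's median. Abca1 (0.76), Atp11b (0.77) and Mgp (1.08) are the only red points among 53 genes, and the list medians lie between -0.22 and 0.06.

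Each of the 3 calls was lost with no filter and with wild type replicate 1 and double knockout replicate 2 both left out. Abca1 also lost it without wild type replicate 1, double knockout replicate 1 or double knockout replicate 3, with limma's adjusted p at 0.0114 to 0.158 over the alternatives. Atp11b also lost it with no intensity trend and without wild type replicate 1 or any 1 array labelled double knockout (0.0209 to 0.252). Mgp also lost it with no intensity trend, with a robust trend and without any 1 of the 6 arrays (0.0306 to 0.191).

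Markers of the cells known to carry the receptors were set beside these values. All 18 tested microglia markers read lower in the arrays labelled double knockout, with a median log2 difference of -0.49, and 0 passed limma's adjusted p of 0.05 (11 at an unadjusted p under 0.05). Their summed signal was 3615 to 4811 in the arrays labelled double knockout, against 5037 to 5934 in wild type, with none of the tested markers at 0. The brightest, Csf1r and Ctss, read 1405 ± 98.9 and 486 ± 177 in the arrays labelled double knockout, against 1596 ± 135 and 705 ± 158 in wild type. The microglia medians per array were 0.03, -0.37 and -0.41 in double knockout replicates 1, 2 and 3, against 0.32, 0.17 and 0.16 in wild type replicates 1, 2 and 3. Mertk was highest in double knockout replicates 2 and 3, the arrays lowest in microglia markers. What part cell composition has in the member values was not tested.

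Cortical neuron markers, from the cells best known for Tyro3, had a median log2 difference of 0.0004 over 12 tested genes, with 6 higher, 6 lower and 0 called by limma (4 at an unadjusted p under 0.05). Their summed signal was 35286 to 37148 in the arrays labelled double knockout, against 30287 to 36360 in wild type, and the brightest, Snap25 and Syt1, differed by 0.23 and 0.27 without passing. The per-array medians of the neuron list overlapped between the groups. A median over genes that went both ways does not measure the neurons that carry Tyro3. What part neuron content has in the Tyro3 values was not tested. Astrocyte markers had a median of -0.06 over 14 genes, with 5 higher and 9 lower. Their summed signal was 21807 to 22278 in the arrays labelled double knockout, against 19894 to 23117 in wild type. The brightest, Slc1a2 and Aldoc, differed by 0.23 and 0.22 without passing. Aqp4, the water channel of astrocyte endfeet, fell to 495 ± 100.3 in the arrays labelled double knockout, against 967 ± 7.67 in wild type (SD, n = 3 each; log2 -0.96, limma adjusted p = 0.0139), and fell on both of its dimmer probe sets as well. It lost the call with no filter, without wild type replicate 1 or double knockout replicate 3, and with wild type replicate 1 and double knockout replicate 2 both left out (adjusted p = 0.00759 to 0.162 over the alternatives).

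Oligodendrocyte markers had a median of 0.13 over 11 genes and a summed signal of 22130 to 27738, against 20875 to 21988 in wild type. That median had no settled sign, at -0.05 when wild type replicate 3 was left out, -0.01 when double knockout replicate 1 was left out and 0.32 with wild type replicate 1 and double knockout replicate 2 both left out. Endothelial markers had a median of -0.07 over 11 genes and a summed signal of 2874 to 3247, against 2757 to 3431 in wild type, and their median ran from -0.19 to 0.07 when 1 array at a time was left out. No gene of either list passed in limma (2 and 3 at an unadjusted p under 0.05). Of the oligodendrocyte markers 8 were higher and 3 lower, and of the endothelial markers 5 were higher and 6 lower. The brightest genes of these 2 lists were Mbp (log2 0.37), Cnp (0.28), Itm2a (-0.38) and Slc2a1 (0.38).

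Markers of meninges and perivascular cells had a median of -0.30 over 7 genes, all lower and 0 past limma's threshold (1 at an unadjusted p under 0.05), with a summed signal of 790 to 946 against 888 to 1970 in wild type. The brightest were Igf2 (-0.35) and Dcn (-1.49). Choroid plexus markers had a median of -0.77 over 5 genes and were high in wild type replicate 3, at 1.497 above the mean of all arrays, where the other arrays lay between -0.71 and -0.04. Without wild type replicate 3 the median was -0.29, over the 2 genes still above the filter. Ttr, the transthyretin gene of this tissue, read 4697, 37.5 and 34.6 in double knockout replicates 1, 2 and 3, against 71.0, 375 and 10347 in wild type replicates 1, 2 and 3. Igfbp2, which encodes a binding protein of insulin-like growth factors, fell to 243 ± 27.7, against 541 ± 132 in wild type (log2 -1.08, limma adjusted p = 0.0225), and lost the call with no filter, without wild type replicate 1, double knockout replicate 2 or double knockout replicate 3, and with the first 2 of these both left out (0.00274 to 0.2502 over the alternatives). Ttr was highest in wild type replicate 3, followed by double knockout replicate 1. The other tested choroid plexus markers were not raised alike in double knockout replicate 1, whose list median was -0.22. Clic6, Folr1, Sostdc1 and Igfbp2 read 30.6, 29.8, 41.8 and 269 there, against 110, 245, 149 and 660 in wild type replicate 3. Tyro3 signal in wild type replicate 3 and double knockout replicate 1 was 469.8 and 237 on the brighter probe set, and 271 and 207 on the dimmer one. What part choroid plexus tissue has in the Tyro3 values was not tested.

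**Figure D5:**
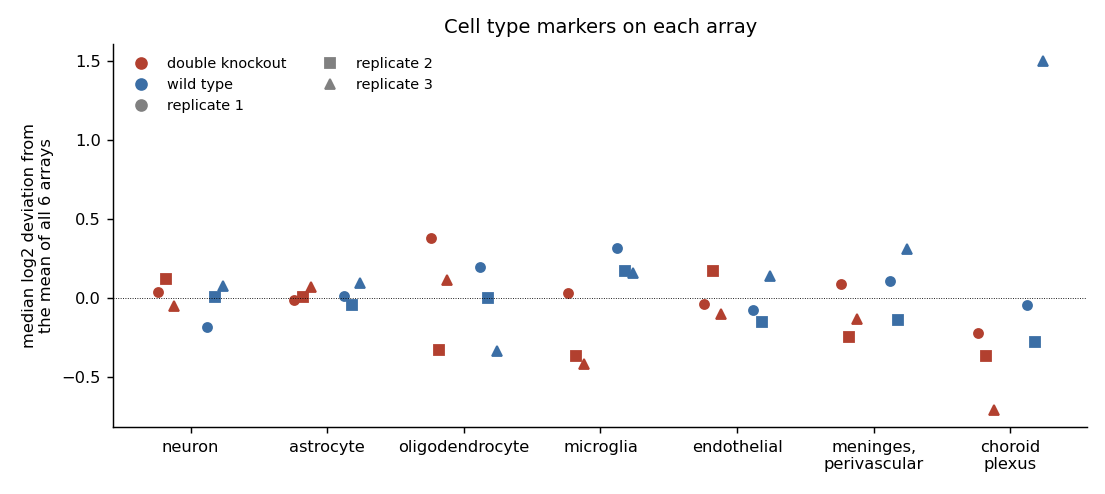
Median log2 deviation of the tested markers of 7 cell types from their mean over all 6 arrays, per array, with the arrays labelled double knockout in red left of wild type in blue and a marker shape per replicate. Microglia markers are lower in the arrays labelled double knockout (-0.41 to 0.03, against 0.16 to 0.32 in wild type), neuron markers overlap, and choroid plexus markers are high in wild type replicate 3 (1.497).

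The genes whose pattern over the 6 arrays was most like a member were taken by Pearson's r of log2 signal, as a description over 22518 tested probe sets and with no test. For the bright Tyro3 probe set they were Ankrd6 and Bcorl1 (r = 0.996 each), which read lower without overlap but did not pass (log2 -0.45 and -0.58). After each group's mean was subtracted they were Psmc6 (r = 0.9998) and Cpeb3 (r = 0.997), which differed between the groups by 0.03 and 0.09. The lists with and without the group means thus named different genes. For Gas6 the most alike over all arrays were Dock4 and Kansl1l (r = 0.996 and 0.995), and with group means subtracted Mast1 and Lin37 (r = 0.998 and 0.997). For Axl they were Dvl2 and Vezt (r = 0.992 and 0.989), or Mapt and Cpsf3 (r = 0.996 and 0.993). For Mertk they were Trit1 and Aplp2 (r = 0.992 each), or Pacsin3 and Trit1 (r = 0.998 each), and for Pros1 Fam102a and Haus7 (r = 0.988 and 0.986), or Glrx2 and Suclg2 (r = 0.996 each). With so few arrays the best of many probe sets reaches such values for every member, and the arrays share the group difference.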

How the data were processed

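The authors deposited 1 linear intensity signal per probe set and array, already summarised and scaled: the trimmed mean (2% at each end) is 150.0 on every array. Their software, settings and genome build are not given in the sources used here. All columns were used and 0 array pairs were identical. Array medians lay between 36.2 and 39.5 signal units. The number of arrays limits the precision.

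Of 45037 probe sets besides 64 controls, 34945 have 1 gene symbol in the platform annotation, 932 several and 9160 none. Current symbols came by gene number from a RefSeq table of GRCm38.p6, used otherwise for gene order. A floor of 1 was applied (4.35% of values lay under it) before log2(signal + 16). This scale understates the change of dim probe sets.

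The 22518 probe sets whose mean log2 signal lay above the median of all were tested with limma 3.58.1 in R 4.3.3 (a model with group alone, eBayes with a trend on intensity, two-sided, Benjamini-Hochberg over all tested, adjusted p under 0.05). This step was also tested on simulated data, with 200 altered probe sets in each of 5 draws. It recovered 0% of those altered by 0.5 on the log2 scale, 64.3% at 1 and 82.3% at 2. A gene with a difference near 0.5 that did not pass is therefore not shown to be unchanged. Differences are the arrays labelled double knockout minus wild type. A gene is represented by its brightest probe set. Members and gene lists were chosen with earlier results of these data known. Named are all member probe sets, the targeted genes, of each pathway list up to 3 genes past the threshold by size or else the 2 with the smallest p, of each marker list the 2 brightest and up to 2 past the threshold, and the 2 genes most like each member. The alternatives were other pseudocounts, normalizations, filters, variance trends, array weights, arrays left out, the replicate number as a block and a mean over probe sets of a gene. Plots used matplotlib 3.10.9 and Python 3.11.15.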

Additional observations from a re-analysis of the deposited data

How the results depend on the processing

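The difference of the bright Tyro3 probe set changed little with the processing. The log2 difference of the bright Tyro3 probe set lay between -1.31 and -0.95 over 18 alternatives, with -0.95 for the mean of both probe sets, and at -1.20 under both other normalizations. The bright probe sets of Axl (-0.20 to -0.01), Mertk (0.06 to 0.28), Gas6 and Pros1 (0.08 to 0.32) kept their signs. All moved by less than 1 SD between replicates, except that the Gas6 value became 0.086 (0.33 on the bright one) as the mean of both probe sets. For Axl, Mertk and Pros1 that SD (0.15, 0.17 and 0.19) was larger than the difference itself (-0.11, 0.16 and 0.18). This measure therefore cannot show that the differences of these members are stable. The dim Axl probe set stood at -0.68 with a pseudocount of 1, against -0.12.

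The count of 229 probe sets past the threshold became 10 with no filter, 131 with no intensity trend and 9 with wild type replicate 1 and double knockout replicate 2 both left out. Leaving out 1 array gave 33 to 300: 99 without wild type replicate 1, and 150, 51 and 33 without double knockout replicates 1, 2 and 3. The cause was not tested. With the replicate number as a block it was 182. The groups share only replicate numbers, and deviations of same-numbered arrays correlated at -0.15, 0.001 and -0.10. Of 216 recomputed list medians 201 moved by less than the spread between arrays. The median of the phosphatidylserine receptor list shrank to -0.08 without wild type replicate 1 or double knockout replicate 3, and to -0.01 with the stricter filter.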
